A study of Homo sapiens with 10 samples.

Results

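Genes were collected here that shifted the same way when WA09 human embryonic stem cells (hESC) were turned into 4 different derivatives. A gene was included where its change in log2(FPKM + 1), derivative minus hESC and centred on the median of the table, was at most -1 or at least 1 in all 4 derivatives or in exactly 3 of them. FPKM is a fragment count corrected for transcript length and for the size of the library, and a pseudocount of 1 means that the change of a gene with low values is understated. Of 21298 gene symbols present in all 4 tables on chromosomes 1 to 22 and X, 1057 were included. Of these, 232 (1.09% of all symbols) were lower in all 4 derivatives and 91 (0.427%) were higher in all 4. A further 490 were lower and 244 higher in exactly 3. The change itself chose these genes, so it is given as a description and with no test of its own.

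Human embryonic stem cells correspond to the epiblast that gives rise to all tissues of the body. A small network of transcription factors, with POU5F1 (OCT4), SOX2 and NANOG at its centre, keeps its own members and many stem cell genes transcribed, and FGF and activin signals hold that network in place. When the cells are steered to any germ layer the network is switched off, DNA methylation and chromatin complexes change their composition, and cell adhesion is remodelled. The comparison of 4 derivatives with one starting cell asks which genes every route shares.

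The 4 derivatives were made from the same line, an established line at passages 52 to 58, on Matrigel in DMEM/F-12. Definitive endoderm (DE) was grown for 4 days without IGF-I or heregulin, in 8 ng/mL FGF plus 100 ng/mL activin A, and 25 ng/mL Wnt-3a was present during the first day only. Splanchnic mesoderm (MESO) took 4 days in the hESC factors given below, to which 100 ng/mL BMP-4 and 25 ng/mL Wnt-3a were added. Neural progenitor cells (NPC) took 6 days with 200 ng/mL IGF-I and 10 ng/mL heregulin, lacked FGF and activin A, and were exposed to SB431542, which blocks activin receptors, and to 500 nM LDN, which blocks BMP receptors. Pre-neural crest cells (NCSC) took 6 days, lacked activin A, kept 10 ng/mL heregulin and 200 ng/mL IGF-I as well as FGF at 8 ng/mL, and were exposed to SB431542 together with BIO, which blocks GSK3. The hESC that served as control for every derivative spent 4 days with activin A and heregulin, each at 10 ng/mL, with IGF-I at 200 ng/mL, and with FGF at 8 ng/mL. Seeding was at 90000 cells per square centimetre for NPC and NCSC and at 50000 for DE, MESO and hESC, so time and density differ with the derivative and cannot be told apart from it.

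Each of the 5 cell types had 2 poly-A libraries, and the labels do not say whether the 2 came from separate cultures. Each of the 4 deposited tables holds a single FPKM value for the derivative and a single one for hESC, so there is no spread between libraries here, and read depth is not known from the tables. The series has only 2 hESC libraries, and the tables do not say which of them entered each hESC value. If both entered all 4 tables, an unusual hESC value would shift a gene in every table in the same direction. The hESC value was nonetheless deposited 4 times, and it differed over 2 times between tables for 15 of the 232 genes lower in all 4 and for 6 of the 91 higher in all 4. The share over all symbols was 11.8%. Among symbols with at least 1 FPKM in every hESC column, 366 of 11669 differed that much. The counts were 15 of 232 lower and 4 of 69 higher genes, larger shares than among all such symbols. Some hESC values in the DE table stood apart from those elsewhere, as in DRD4 and HAND1, picked after their values were seen. For DRD4 the hESC value was 2.31 FPKM in the DE table and 8.71 to 9.22 FPKM in the others. For HAND1 it was 0.142 FPKM in the DE table and 1.27 to 1.47 FPKM in the others. Whether the 4 tables share one scale is not given in the sources used here. Levels of different derivatives are set side by side below with that limit. The median change over all symbols was 0 in each table after centring. Among symbols of at least 1 FPKM in either cell type the median before centring lay at 0.05 in DE, 0.07 in MESO, -0.27 in NPC and -0.23 in NCSC.

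The labelled identities were checked against markers. The endoderm set summed to 782 FPKM in DE against 12.5 FPKM in hESC, with 8 of 9 measured genes past a change of 1, and the neural set to 392 FPKM in NPC against 25.3 FPKM in hESC, with 10 of 10. In MESO the mesoderm set summed to 1013 FPKM against 4.03 FPKM in hESC (9 of 10 higher), but the trophoblast and amnion set reached 1266 FPKM against 30.7 FPKM (9 of 10) and the fibroblast set 1334 FPKM against 158 FPKM (7 of 8). In NCSC the crest and border set stood at 51.1 FPKM against 16.9 FPKM in hESC (4 of 10 higher), while the same set reached 204 FPKM in MESO against 16.3 FPKM in hESC (6 of 10), and the fibroblast set was at 760.2 FPKM in NCSC against 157 FPKM in hESC (3 of 8). Most of the fibroblast sum in NCSC came from COL1A1 at 329 FPKM and COL1A2 at 413 FPKM. COL3A1, LUM, DCN and POSTN lay at 0.0365 to 0.0926 FPKM in NCSC. SOX10 was at 2.91 FPKM in NCSC against 2.57 FPKM in hESC and TFAP2A at 0.0463 FPKM in NCSC against 0.289 FPKM in hESC. What these other cell markers contribute to the shared genes was not tested. In bulk RNA, fewer cells of a type and less RNA per cell cannot be told apart, so a partial loss of a stem cell gene may be either.

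The shared genes were unevenly spread over the derivatives. The share of all symbols at -1 or less was 2.78% in DE, 5.48% in MESO, 13.1% in NPC and 10.3% in NCSC, and the share at 1 or more was 4.37% in DE, 8.25% in MESO, 6.09% in NPC and 5.31% in NCSC. DE was thus the most restrictive table for losses, and it was the missing derivative for 350 of the 490 genes lower in exactly 3, against 63 for MESO, 24 for NPC and 53 for NCSC. For genes higher in exactly 3, DE was missing in 124 of 244, MESO in 36, NPC in 39 and NCSC in 45. The exception was often a matter of degree, since 222 of the 490 and 104 of the 244 were past 0.5 in the shared direction in the fourth derivative. In 31 and 8 genes the fourth derivative was past 1 in the opposite direction.

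**Figure D1:**
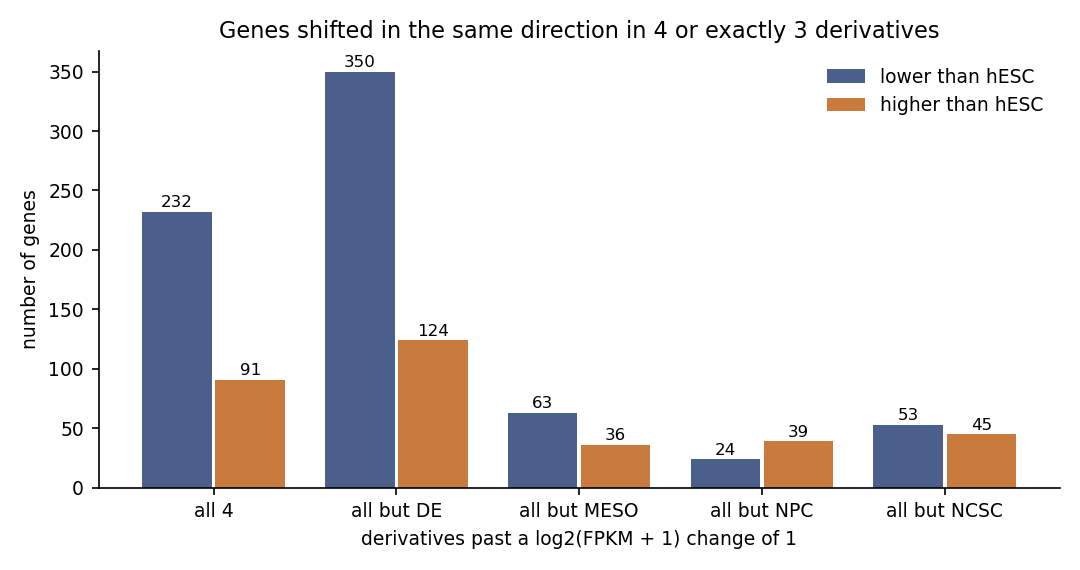
Number of genes (vertical axis) lower (blue) or higher (orange) than hESC by at least 1 in centred log2(FPKM + 1) change, in all 4 derivatives or in all but the one named. All 4 derivatives share 232 lower and 91 higher genes, and the tallest bar, 350 lower genes, belongs to all but DE.

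The genes lower in all 4 had a median of 1.25 FPKM across derivatives and 10.5 FPKM in hESC. Their median change was -1.4 in DE, -1.96 in MESO, -2.27 in NPC and -2.06 in NCSC. The smallest of the 4 changes was found in DE for 149 of the 232 genes, and the largest in NPC for 119. The genes higher in all 4 had a median of 17.5 FPKM in derivatives and 2.65 FPKM in hESC, with median changes of 1.78 in DE, 2.07 in MESO, 1.88 in NPC and 1.88 in NCSC. Only 38 of the lower and 10 of the higher genes were past 2 in every table.

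A gene is said below to pass where its q-value in the authors' deposited table was under 0.05. By that measure the tables differed widely. Over all tested symbols, 0.0215% fell and 0.402% rose in DE, 5.51% fell and 9.32% rose in MESO, 25.0% fell and 12.1% rose in NPC, and 20.2% fell and 10.3% rose in NCSC. Of the 232 genes lower in all 4, 1 passed in the authors' deposited table for DE, 150 in that for MESO, 186 in that for NPC and 191 in that for NCSC. Of the 91 higher in all 4, the counts were 10 in DE, 77 in MESO, 84 in NPC and 85 in NCSC in the authors' deposited tables. At least 3 tables passed for 127 of the 232 and 76 of the 91. No support is drawn from these counts, because q and the change come from the same contrast. Almost none of the losses passed in DE, where they rest on the size of the change.

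**Figure D2:**
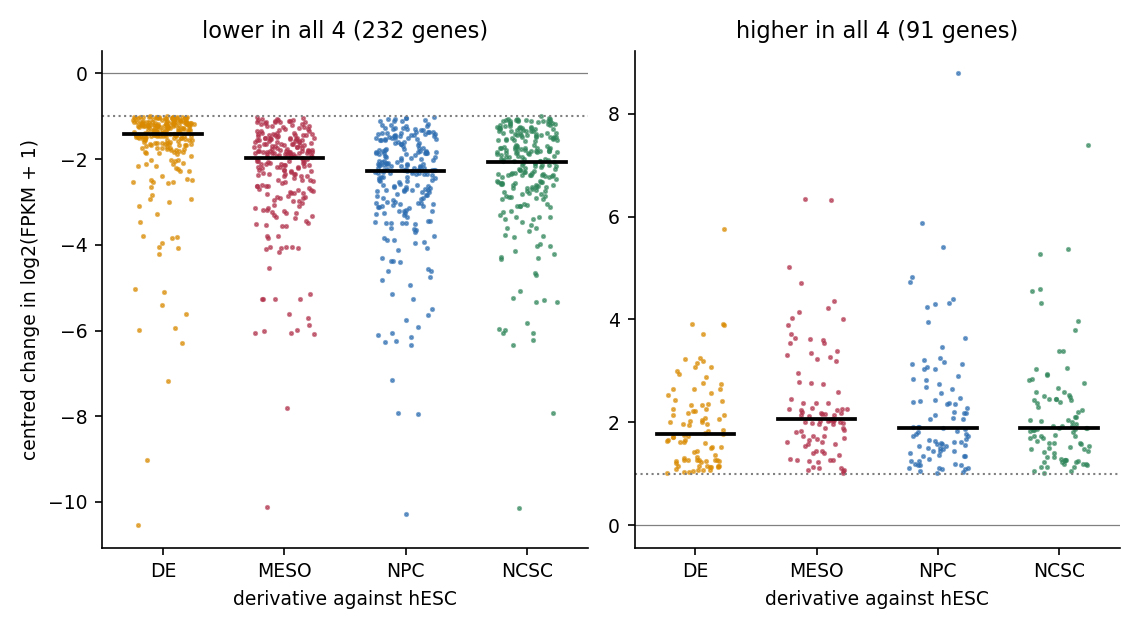
Centred change in log2(FPKM + 1), derivative minus hESC (vertical axis), of the 232 genes lower and the 91 genes higher in all 4 derivatives, 1 point per gene, with the median as a bar and the limits of -1 and 1 dotted. DE points of the lower genes crowd at the limit, with a median of -1.4 against -2.27 in NPC.

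The 3 markers of the undifferentiated state were lower in every derivative, and to different depths. ESRG, a long noncoding RNA of human pluripotent cells, was at 60.8 in DE, 2.72 in MESO, 0.163 in NPC and 2.25 FPKM in NCSC, against 247 to 325 FPKM in hESC. PRDM14, a transcription regulator that maintains human embryonic stem cells, was at 12.2 in DE, 0.843 in MESO, 0.575 in NPC and 1.03 FPKM in NCSC, against 69.6 to 78.7 FPKM in hESC. USP44, a deubiquitinase that acts on histone H2B and in the mitotic checkpoint, was at 23.5 in DE, 0.716 in MESO, 17.0 in NPC and 13.4 FPKM in NCSC, against 64.1 to 74.4 FPKM in hESC. No derivative value of these 3 genes reached any hESC value, which largely follows from their meeting the rule in every table. DE held the highest remainder of ESRG and PRDM14, while USP44 was nearly lost in MESO only and kept a sizeable remainder elsewhere. The changes were -2.40 in DE, -6.06 in MESO, -7.92 in NPC and -6.35 in NCSC for ESRG and -1.41 in DE, -5.27 in MESO, -1.85 in NPC and -2.39 in NCSC for USP44. In the authors' deposited tables the 3 genes fell in MESO, NPC and NCSC, and in DE their q-values were 0.0595 for ESRG, 0.149 for PRDM14 and 0.877 for USP44. In hg19, PRDM14 lies at chr8:70958647-70983562 and USP44 at chr12:95910335-95945263.

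The wider pluripotency list had 37 measured genes, of which 12 were lower in all 4 derivatives, 12 lower in exactly 3, 1 higher in exactly 3 and none higher in all 4. Of all symbols, 1.09% were lower in all 4 and 2.30% lower in exactly 3. The list's median change was -0.68 in DE, -2.49 in MESO, -3.18 in NPC and -2.57 in NCSC, where the median of all symbols was 0. POU5F1, the central factor of the network, was at 29.7 in DE, 19.9 in MESO, 0.645 in NPC and 17.1 FPKM in NCSC, against 217 to 235 FPKM in hESC. It was almost absent from NPC, and the remainder in the others was well under any hESC value. DNMT3B, the de novo DNA methyltransferase of the early embryo, had the highest hESC level of the 12, at 834 to 998 FPKM in hESC. It stood at 249.6 in DE, 89.3 in MESO, 45.5 in NPC and 26.6 FPKM in NCSC. DPPA4, a chromatin-associated protein of pluripotent cells, kept 169.6 FPKM in DE and 64.6, 75.5 and 65.5 FPKM in MESO, NPC and NCSC, against 408 to 481 FPKM in hESC. UTF1, a chromatin-bound factor of undifferentiated cells, was at 2.14 in DE, 0.646 in MESO, 0.0496 in NPC and 0.392 FPKM in NCSC, against 24.3 to 27.6 FPKM in hESC.

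Telomere genes belonged to the same group. TERF1, which coats telomeric repeats, was at 21.9 in DE, 10.4 in MESO, 10.1 in NPC and 7.44 FPKM in NCSC, against 77.2 to 92.3 FPKM in hESC, and TERT, the catalytic subunit of telomerase, at 2.98 in DE, 0.673 in MESO, 1.81 in NPC and 1.34 FPKM in NCSC, against 5.91 to 9.08 FPKM in hESC. Both symbols have several rows in the tables, and their value is that of the row with the highest mean. TRIM71, an RNA-binding repressor of differentiation, kept a larger remainder, at 53.3 in DE, 29.4 in MESO, 24.3 in NPC and 46.2 FPKM in NCSC, against 96.2 to 149 FPKM in hESC. LCK, a Src family kinase best known from T cells, was lost unevenly, with 11.4 FPKM in DE and 0.32, 0.127 and 0.0941 FPKM in MESO, NPC and NCSC, against 20.8 to 27.0 FPKM in hESC. NANOG met the rule by its deposited values, but its FPKM in the DE table is written with more digits than the other cells and does not match its statistic, so no direction is given for it.

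POU5F1 has near-identical copies between which fragments may have been divided. Its longest transcript is 97.67% identical to that of POU5F1B over 1375 bases, 97.96% to POU5F1P3 and 97.05% to POU5F1P4. Summed over the 4 symbols, the family stood at 93.7 FPKM in DE against 363 FPKM in hESC, at 30.9 against 336 in MESO, at 1.74 against 362 in NPC and at 27.9 against 341 in NCSC. POU5F1 itself made up 31.7% of that sum in DE and 63.9% in hESC of the same table. In DE the change of the sum, not centred, was -1.94, where the centred change of POU5F1 alone was -2.93. The family was thus lower in each derivative, by a smaller amount in DE when its copies were summed.

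**Figure D3:**
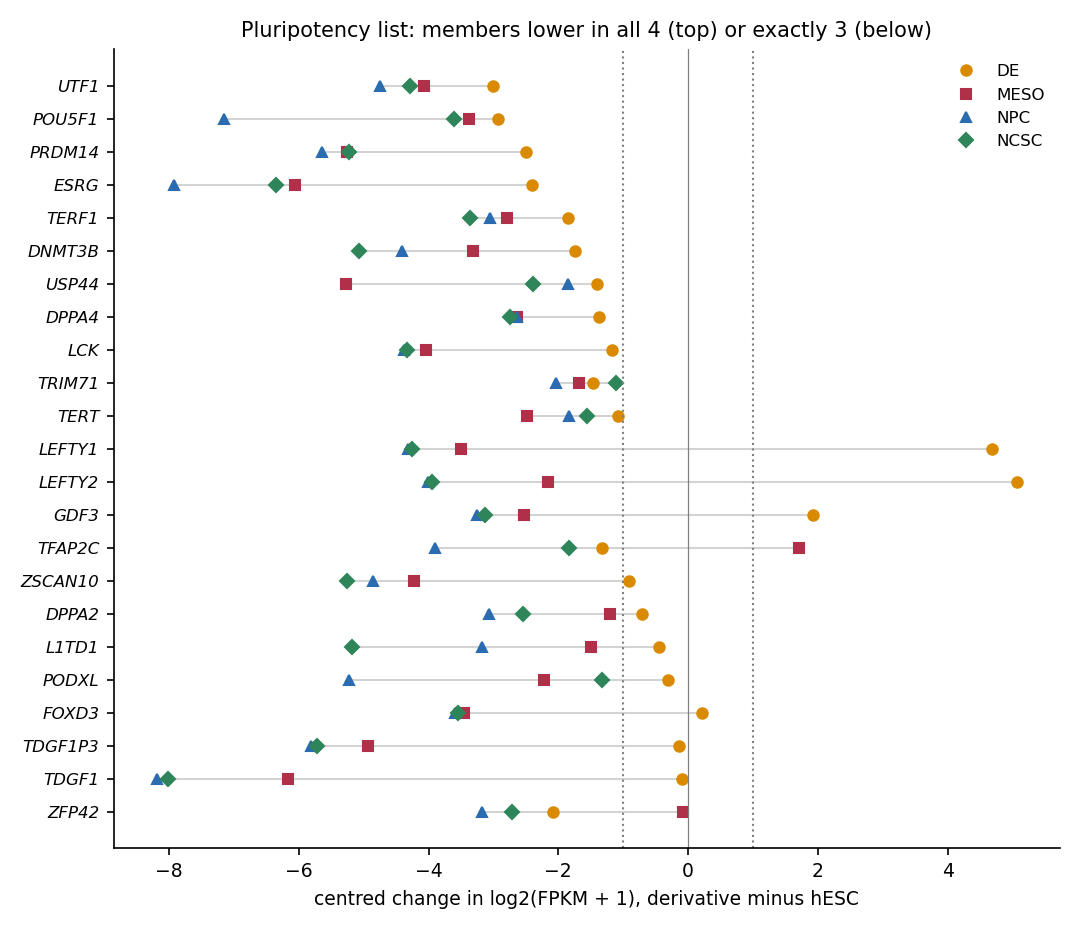
Centred change in log2(FPKM + 1), derivative minus hESC (horizontal axis), of the pluripotency list members lower in all 4 derivatives (upper 11, NANOG left out) or in exactly 3, with 1 symbol per derivative and dotted lines at -1 and 1. DE lies furthest right for most genes, and LEFTY1, LEFTY2 and GDF3 cross to the right in DE, at 4.69, 5.07 and 1.93.

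Other core genes were not shared losses. SOX2, the partner of POU5F1 and also a neural factor, was at 60.9 in DE, 1.97 in MESO, 418 in NPC and 167 FPKM in NCSC, against 231 to 259.6 FPKM in hESC, past -1 in DE and MESO only. LIN28A, which blocks let-7 maturation, was at 259.6 in DE, 125 in MESO, 266 in NPC and 274 FPKM in NCSC, against 406 to 478 FPKM in hESC, past -1 in MESO only. LIN28B, its paralogue, had changes of -0.16 in DE, 0.19 in MESO, -0.15 in NPC and -0.64 in NCSC. MYC had changes of -0.44 in DE, -0.41 in MESO, -1.66 in NPC and -3.08 in NCSC, and MYCN of -0.92 in DE, -1.19 in MESO, -2.02 in NPC and -0.80 in NCSC. None of these 5 genes was in a shared class, and the 33 measured genes of the MYC and cell cycle list gave none in all 4. Beside 1.09% lower and 0.427% higher over all symbols, the latter says little for a list of that size.

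Promoters are shown for PHC1 and PHC2, paralogous subunits of Polycomb repressive complex 1 that moved in opposite directions, and for the pluripotency genes DPPA4 and UTF1, whose promoters differ widely in CpG content. Each is the 250 bases before the transcription start in RefSeq, assembly GRCh38.p14, read 5′ to 3′ on the strand of the gene, with every CG in capitals.
PHC1 (chr12:8913593-8913842, plus strand): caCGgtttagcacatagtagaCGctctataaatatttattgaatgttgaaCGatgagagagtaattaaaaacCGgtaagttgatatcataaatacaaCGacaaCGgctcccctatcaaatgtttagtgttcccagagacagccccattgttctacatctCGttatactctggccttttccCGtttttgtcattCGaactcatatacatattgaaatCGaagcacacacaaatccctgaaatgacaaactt
PHC2 (chr1:33431096-33431345, minus strand): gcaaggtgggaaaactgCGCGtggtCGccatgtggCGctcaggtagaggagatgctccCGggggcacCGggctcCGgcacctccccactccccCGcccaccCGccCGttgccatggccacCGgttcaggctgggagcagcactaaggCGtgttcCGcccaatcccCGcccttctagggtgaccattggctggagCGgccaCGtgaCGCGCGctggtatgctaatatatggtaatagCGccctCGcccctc
DPPA4 (chr3:109337547-109337796, minus strand): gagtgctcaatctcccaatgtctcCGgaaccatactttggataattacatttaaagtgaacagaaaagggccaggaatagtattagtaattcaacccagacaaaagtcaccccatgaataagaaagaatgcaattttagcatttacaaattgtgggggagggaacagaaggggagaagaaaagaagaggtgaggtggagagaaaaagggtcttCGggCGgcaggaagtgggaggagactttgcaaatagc
UTF1 (chr10:133229967-133230216, plus strand): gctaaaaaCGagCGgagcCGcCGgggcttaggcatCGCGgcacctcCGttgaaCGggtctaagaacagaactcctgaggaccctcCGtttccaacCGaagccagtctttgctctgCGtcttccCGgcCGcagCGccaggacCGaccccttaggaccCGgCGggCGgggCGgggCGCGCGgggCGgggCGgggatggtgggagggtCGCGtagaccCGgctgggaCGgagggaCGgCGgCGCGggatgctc
PHC1 holds 10 CpG and PHC2 21, while DPPA4 holds 3 and UTF1 32, so DPPA4 and UTF1, which shared a loss, did not share a CpG-rich start. The RefSeq table had an entry for 62.1% of the genes lower in all 4 and for 82.4% of those higher in all 4, against 71.0% of all symbols. With fewer than 80% covered, a comparison of promoter features for the lower genes is void. Among the 75 higher genes with an entry, the octamer ATGCAAAT, read on both strands over 300 bases, was present in 1 (TNC), against 1.58% of all 15126 entries and 1.25% of the 9220 entries of symbols with at least 1 FPKM in every hESC column.

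Germline and early embryo genes gave 5 of 27 measured genes lower in all 4, 3 lower in exactly 3 and none higher. Among all symbols 1.09% were lower in all 4 and 2.30% lower in exactly 3. DPPA5, an RNA-binding protein of early embryos, was listed at 0 in NCSC and was at 4.23 FPKM in DE, 0.840 FPKM in MESO and 0.0339 FPKM in NPC, against 70.1 to 80.7 FPKM in hESC. KHDC3L, a maternal factor encoded next to DPPA5 on chromosome 6, was low throughout, at 0.0353 to 0.242 FPKM in the derivatives and 2.17 to 2.36 FPKM in hESC. PIWIL2, which binds piRNAs in germ cells, was at 5.92 in DE, 4.31 in MESO, 0.175 in NPC and 0.260 FPKM in NCSC, against 12.9 to 17.5 FPKM in hESC. DE and MESO kept more of it than NPC and NCSC. TEX15, a germ cell gene, was at 0.327 to 0.978 FPKM in derivatives against 3.19 to 4.03 FPKM in hESC. The list's median change was -0.24 in DE, -0.43 in MESO, -0.54 in NPC and -0.34 in NCSC. VENTX and VRTN, embryonic transcription factors, were lower in all but DE, with changes of -0.71 in DE, -2.17 in MESO, -3.37 in NPC and -3.06 in NCSC for VENTX and 0.76 in DE, -3.98 in MESO, -3.64 in NPC and -1.69 in NCSC for VRTN.

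FGF ligands and a feedback gene of the same pathway moved in opposite directions. FGF2, a ligand that sustains hESC and that the cells also make, was at 10.4 in DE, 6.79 in MESO, 15 in NPC and 6.64 FPKM in NCSC, against 66.1 to 86.6 FPKM in hESC. FGF4, an autocrine ligand of pluripotent cells, was at 1.44 in DE, 0.0551 in MESO, 0.0669 in NPC and 0.180 FPKM in NCSC, against 6.72 to 7.64 FPKM in hESC. DUSP6, the ERK phosphatase induced by ERK signalling, was at 20.9 in DE, 55.0 in MESO, 11.3 in NPC and 38.6 FPKM in NCSC, against 1.73 to 1.98 FPKM in hESC. It was higher in all 4 derivatives, including NPC, which received no FGF. In the authors' deposited tables DUSP6 rose in MESO, NPC and NCSC, while its q-value in DE was 0.134, and that of FGF2 in DE was 0.0512. Of the 25 measured genes of the FGF and ERK list, 2 were lower and 1 higher in all 4, against 1.09% and 0.427% of all symbols. The list as a whole thus did not move one way. Its receptors FGFR4 (changes of -0.40 in DE, -1.34 in MESO, -2.17 in NPC and -1.63 in NCSC) and FGFR2 (-1.12 in DE, 0.02 in MESO, -1.29 in NPC and -1.55 in NCSC) were lower in exactly 3, with DE and MESO as the exceptions.

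Chromatin regulators were shared in both directions. PHC1 was at 57.7 in DE, 24.4 in MESO, 23.8 in NPC and 22.1 FPKM in NCSC, against 141 to 162 FPKM in hESC, and PHC2 at 13.8 in DE, 30.6 in MESO, 54.1 in NPC and 36.4 FPKM in NCSC, against 2.45 to 2.69 FPKM in hESC. The PHC2 level stood above the PHC1 level in MESO, NPC and NCSC, and below it in DE and in hESC. H2AFY, which encodes the histone variant macroH2A1, was at 92.8 in DE, 109 in MESO, 81.1 in NPC and 52.4 FPKM in NCSC, against 13.1 to 19.1 FPKM in hESC, and H2AFY2, which encodes macroH2A2, at 48.5 in DE, 22.1 in MESO, 83.9 in NPC and 31.1 FPKM in NCSC, against 5.45 to 7.56 FPKM in hESC. HMGA2, an architectural protein of embryonic chromatin, was at 81.3 in DE, 117 in MESO, 96.5 in NPC and 71.1 FPKM in NCSC, against 21.7 to 27.8 FPKM in hESC. Of the 33 measured chromatin genes, 2 were lower and 3 higher in all 4, against 1.09% and 0.427% of all symbols. A further 3 were lower in exactly 3, against 2.30% of all symbols. The exactly-3 group held SMARCA2, the BRM ATPase of the BAF complex, with MESO as the exception. The SMARCA2 symbol has several rows. Also in the group were JARID2, a Polycomb complex 2 subunit (-0.69 in DE, -2.08 in MESO, -2.37 in NPC and -2.14 in NCSC) and HELLS, a chromatin remodeller needed for DNA methylation (-0.81 in DE, -1.84 in MESO, -1.54 in NPC and -2.44 in NCSC).

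More chromatin genes appeared among the shared genes and are named after their values were seen. YAF2, a Polycomb complex 1 accessory protein, was at 3.41 to 4.23 FPKM in derivatives against 0.316 to 0.404 FPKM in hESC. BAHCC1, a chromatin reader and by the size of its smallest change second only to WLS among the higher genes, was at 15.4 in DE, 12.7 in MESO, 15.1 in NPC and 14.2 FPKM in NCSC, against 0.985 to 1.62 FPKM in hESC. ASXL1, a Polycomb-associated protein, CHD3 and CHD7, chromatin remodellers, and SMARCD3, a BAF complex subunit, were also higher in all 4, with smallest changes of 1.01, 1.08, 1.13 and 1.23. On the lower side, SIRT1, a protein deacetylase, was at 18.2 in DE, 15.1 in MESO, 17.2 in NPC and 14.7 FPKM in NCSC, against 50.1 to 70.9 FPKM in hESC, and MTA3, a NuRD complex subunit, at 50.6 in DE, 42.1 in MESO, 41.8 in NPC and 29.5 FPKM in NCSC, against 108 to 125 FPKM in hESC. USP3, which like USP44 removes ubiquitin from histones, went the other way from USP44, at 5.30 in DE, 5.36 in MESO, 9.11 in NPC and 11.1 FPKM in NCSC, against 0.916 to 1.32 FPKM in hESC.

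**Figure D4:**
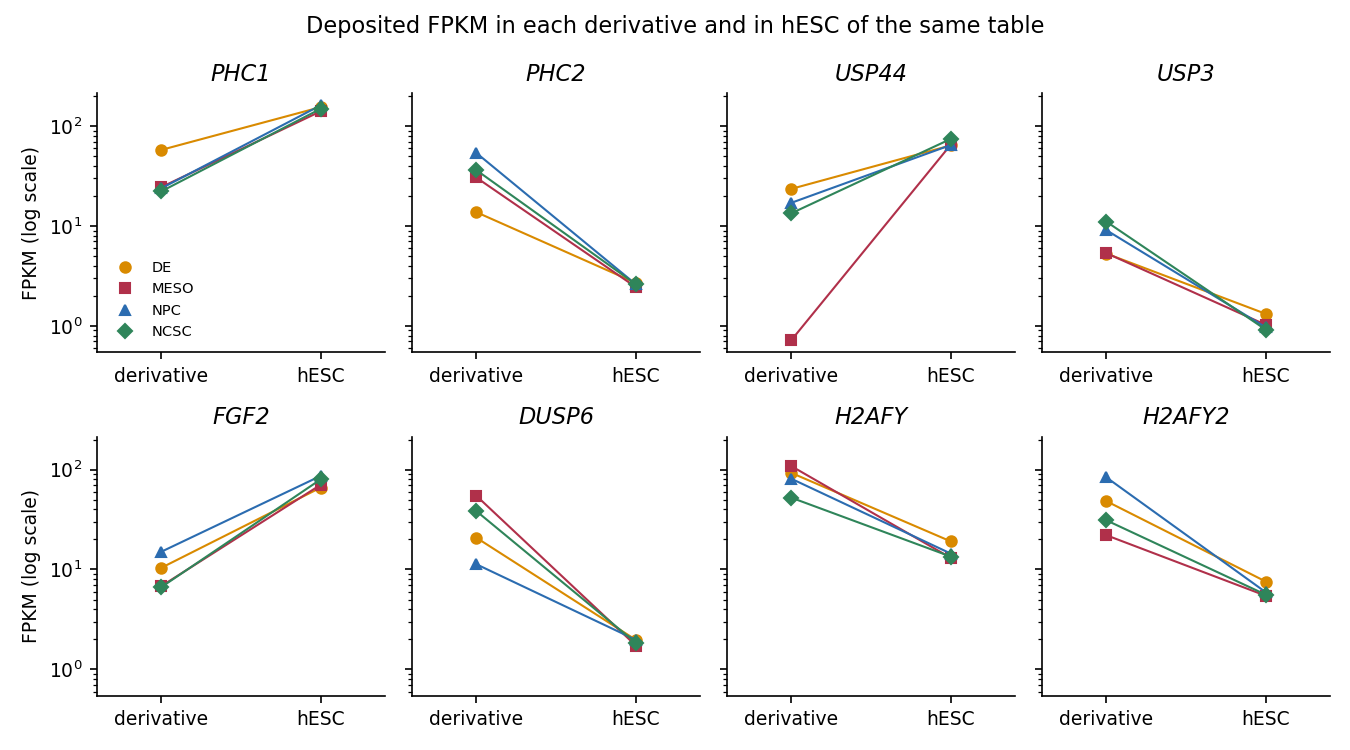
Deposited FPKM (vertical axis, log scale) in each derivative (left) and in hESC of the same table (right) for 8 genes, joined by a line per table. PHC1, USP44 and FGF2 slope upward to hESC and PHC2, USP3, DUSP6, H2AFY and H2AFY2 downward, in all 4 tables.

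Outside the lists, large losses were found for secreted and immune-related genes. LOC100506013, which RefSeq names APELA and which encodes the peptide hormone ELABELA, was at 2.31 in DE, 3.48 in MESO, 4.99 in NPC and 5.57 FPKM in NCSC, against 45.0 to 89.1 FPKM in hESC. It is the only gene lower in all 4 that fell in every authors' deposited table, with a q-value of 0.0389 in DE. Its receptor gene APLNR was higher in exactly 3, at 5.45 in DE, 143 in MESO, 1.04 in NPC and 61.5 FPKM in NCSC, against 0.823 to 0.987 FPKM in hESC, with NPC as the exception. LECT1, which encodes chondromodulin, was at 6.13 in DE, 4.73 in MESO, 1.53 in NPC and 3.38 FPKM in NCSC, against 68.8 to 114 FPKM in hESC. IDO1, which degrades tryptophan, was at 0.588 in DE, 0.0660 in MESO, 0.00167 in NPC and 0.0185 FPKM in NCSC, against 16.5 to 20.2 FPKM in hESC. In the authors' deposited tables IDO1 fell in MESO and NCSC, and its q-value was 0.177 in DE and 0.35 in NPC.

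Several of the largest changes are the least secure. Of the 232 genes, 16 are short RNAs (6 SNAR, 5 small nucleolar, 4 micro and 1 vault RNA), which poly-A libraries capture poorly, and 26 have several rows in the tables. MIR1204 was listed at 0 in all 4 derivatives and at 1109 to 1491 FPKM in hESC, with q-values of 0.999 in DE, 0.23 in MESO, 0.0818 in NPC and 0.114 in NCSC in the authors' deposited tables. KCNQ1, a potassium channel gene, was listed at 0 in every derivative and at 224 to 521 FPKM in hESC in the row used here, with q-values of 0.35 or more in the authors' deposited tables. VTRNA2-1 and SNAR-B1, short RNAs, were also listed at 0 in all 4. SNAR-B1 fell in MESO, NPC and NCSC by the authors' deposited tables, while the lowest q-value of VTRNA2-1 there was 0.144. In total 35 of the lower genes were listed at 0 in at least 1 derivative. With short RNAs and several-row symbols left out, 192 genes were lower and 73 higher in all 4.

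Further groups among the losses are named after their values were seen. No list was fixed for innate antiviral defence, and its genes did not all share the loss. IFITM1 was lower in all but DE, where it was at 1153 FPKM against 799 FPKM in hESC, and TRIM22 in all but NCSC, where it was at 37.8 FPKM against 14.3 FPKM in hESC and rose by the authors' deposited table. SAMHD1, which hydrolyses nucleotides, was at 4.00 in DE, 3.05 in MESO, 4.12 in NPC and 1.41 FPKM in NCSC, against 27.1 to 34.3 FPKM in hESC. HERC5, the ligase for the ubiquitin-like ISG15, was at 11.5 in DE, 8.81 in MESO, 0.827 in NPC and 2.34 FPKM in NCSC, against 23 to 28.4 FPKM in hESC, and DHX58, a sensor of viral RNA, at 0.0398 to 0.615 FPKM in derivatives against 2.08 to 3.06 FPKM in hESC. TRIM14, TRIM25, NMI and the immunoproteasome subunit PSMB10 were lower in all 4 as well, with smallest changes of -1.67, -1.08, -1.11 and -1.08. TRIM14, NMI and PSMB10 were lower in NPC and NCSC than in DE and MESO.

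Some genes known from neurons were lower in all 4, though none of the 13 measured genes of the neuronal list was. Beside 1.09% of all symbols in this class, that says little for so small a list. Of the 13, 1, STMN2, was higher in all 4, and in NPC 4 were higher and 3 lower. The following were picked after their values were seen. The synaptic vesicle genes SYT2, SYT3, SYT6 and SYN3, the synaptic genes RIMS4 and NPTX1, and CAMKV, a brain pseudokinase, were all in this class. SYT6 was at 2.27 in DE, 0.884 in MESO, 4.37 in NPC and 2.86 FPKM in NCSC, against 13.6 to 23 FPKM in hESC, CAMKV at 3.71 in DE, 0.301 in MESO, 3.67 in NPC and 3.97 FPKM in NCSC, against 19.9 to 22.6 FPKM in hESC, and NPTX1 at 0.359 in DE, 0.124 in MESO, 0.0904 in NPC and 0.611 FPKM in NCSC, against 9.42 to 11.6 FPKM in hESC. TUBB4A, a neuronal beta tubulin, stood at 10.8 FPKM in NPC and 30.4 FPKM in hESC of the same table. That every derivative lies below hESC here follows from how these genes were selected.

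Single metabolic genes were lower in all 4, although the amino acid list gave 1 of 27 measured genes and the glycolysis list none of 36. Beside 1.09% of all symbols, these counts say little about the lists. SLC7A3, a transporter of cationic amino acids and the only member of the amino acid list lower in all 4, was at 42.9 in DE, 10.8 in MESO, 24.0 in NPC and 12.4 FPKM in NCSC, against 98.4 to 158 FPKM in hESC. PRODH, which starts proline breakdown, had nearly the same level in all 4 derivatives, at 14.5 in DE, 13.5 in MESO, 11.7 in NPC and 13.6 FPKM in NCSC, against 60.0 to 65.7 FPKM in hESC. AASS, the first enzyme of lysine breakdown, was at 45.3 in DE, 15.5 in MESO, 89.8 in NPC and 33.0 FPKM in NCSC, against 164 to 225 FPKM in hESC. POLR3G, an RNA polymerase III subunit of pluripotent cells, was at 9.55 in DE, 3.21 in MESO, 1.06 in NPC and 4.81 FPKM in NCSC, against 26.8 to 33.7 FPKM in hESC. Apart from SLC7A3, these were chosen after their values were seen, and AASS and POLR3G have several rows. MT1X, a metallothionein, met the rule, but its hESC value was 35.7 FPKM in the DE table and 76.8 to 88.0 FPKM in the others. Its relatives MT1G and MT1H were lower in exactly 3 with DE as the exception, and their hESC values were 17.2 and 3.83 FPKM in the DE table and at least 129 and 55.1 FPKM elsewhere.

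Retinoid and imprinted genes are named on the same terms. DHRS3, which reduces retinal to retinol, was at 4.13 in DE, 3.66 in MESO, 1.03 in NPC and 0.853 FPKM in NCSC, against 27.4 to 30.2 FPKM in hESC, and RBP7, a retinol carrier, at 4.10 in DE, 1.4 in MESO, 0.738 in NPC and 0.597 FPKM in NCSC, against 9.39 to 11.5 FPKM in hESC. IPW, an imprinted noncoding RNA of the Prader-Willi region, was at 33.3 in DE, 17.1 in MESO, 22.6 in NPC and 14.2 FPKM in NCSC, against 63.6 to 80.8 FPKM in hESC, with its neighbour SNORD116-28 also lower in all 4. Imprinted genes stood on the other side too. PEG10, a retrotransposon-derived gene, was at 219 in DE, 137 in MESO, 77.4 in NPC and 84.7 FPKM in NCSC, against 28.8 to 39.5 FPKM in hESC, PLAGL1, a zinc finger factor, at 3.27 in DE, 5.10 in MESO, 7.01 in NPC and 7.0 FPKM in NCSC, against 0.470 to 0.584 FPKM in hESC, and DLK1, a secreted and membrane-bound relative of Notch ligands, at 4.83 in DE, 11.8 in MESO, 1485 in NPC and 545 FPKM in NCSC, against 0.858 to 2.40 FPKM in hESC. DLK1 varied more between derivatives than any of these, with changes of 1.65 in DE, 2.03 in MESO, 8.79 in NPC and 7.39 in NCSC.

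Matrix genes were the list with the most members higher in all 4. Of 45 measured genes of the mesenchymal and matrix list, 7 were higher in all 4, 7 higher in exactly 3, 1 lower in exactly 3 and none lower in all 4. Of all symbols, 0.427% were higher in all 4 and 1.15% higher in exactly 3. The list's median change was 0.47 in DE, 2.51 in MESO, 0.20 in NPC and 0.85 in NCSC. CDH2, neural cadherin, was at 247 in DE, 70.8 in MESO, 127 in NPC and 39.0 FPKM in NCSC, against 14.0 to 17.9 FPKM in hESC. VIM, the intermediate filament vimentin, was at 281 in DE, 1026 in MESO, 223 in NPC and 629 FPKM in NCSC, against 78.3 to 93.8 FPKM in hESC. CDH2 rose in every authors' deposited table, with a q-value of 0.0186 in DE, and VIM in all but DE, where the q-value was 0.239. CDH2 was highest in DE and VIM in MESO, so the shared direction went with different orders of level.

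Basement membrane and fibrillar collagens followed. COL4A5 and COL4A6, head-to-head genes for type IV collagen chains on chromosome X, were at 23.6 to 44.0 FPKM and 12.5 to 28.0 FPKM in derivatives, against 3.87 to 8.68 and 2.08 to 2.69 FPKM in hESC. COL5A1, of type V collagen, was at 36.4 in DE, 93.2 in MESO, 9.01 in NPC and 18.8 FPKM in NCSC, against 1.90 to 4.52 FPKM in hESC. COL2A1, of cartilage collagen, was at 18.3 in DE, 10.1 in MESO, 116 in NPC and 59.6 FPKM in NCSC, against 1.60 to 3.71 FPKM in hESC, most abundant in the neural and pre-crest cultures. FBN2, a fibrillin, was at 35.3 in DE, 46.1 in MESO, 30.9 in NPC and 7.36 FPKM in NCSC, against 2.90 to 3.56 FPKM in hESC. COL5A1 and FBN2 rose in every authors' deposited table. The COL4A5, COL4A6, COL5A1 and FBN2 symbols have several rows, and all stayed past 1 with the row of the largest statistic. No epithelial junction gene was shared by all 4 in either direction, out of 37 measured. Beside 1.09% lower and 0.427% higher over all symbols, this says little for a list of that size. Past -1 were 31 of the 37 in NPC and 31 in NCSC, against 5 in MESO and 1 in DE. Past 1 were 5 in DE, 11 in MESO, 1 in NCSC and none in NPC. Over all symbols 13.1% were past -1 in NPC and 10.3% in NCSC. CDH1, epithelial cadherin, was at 50.8 in DE, 137 in MESO, 0.0631 in NPC and 0.823 FPKM in NCSC, against 77.1 to 89.6 FPKM in hESC, past -1 in NPC and NCSC only, while CDH2 was higher in all 4. CDH1 was picked after its values were seen.

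**Figure D5:**
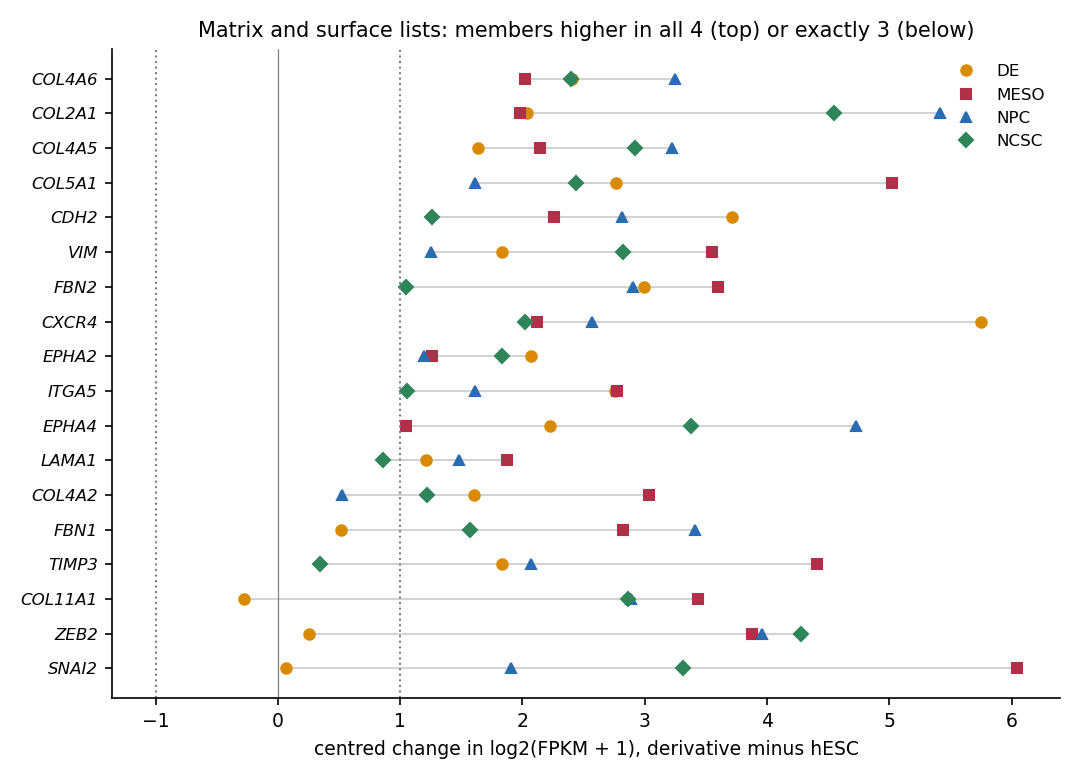
Centred change in log2(FPKM + 1), derivative minus hESC (horizontal axis), of matrix list members higher in all 4 or exactly 3 derivatives and of surface list members higher in all 4, with 1 symbol per derivative and dotted lines at -1 and 1. The derivative furthest right differs by gene, with CXCR4 at 5.75 in DE, COL5A1 at 5.02 in MESO and COL2A1 at 5.41 in NPC.

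Of 40 measured surface and adhesion genes, 4 were higher in all 4, against 0.427% of all symbols. CXCR4, the receptor for CXCL12 and a common endoderm sorting marker, was at 176 in DE, 10.8 in MESO, 16.6 in NPC and 10.6 FPKM in NCSC, against 1.73 to 2.28 FPKM in hESC. It rose in every authors' deposited table, although its level in DE was over 10 times that in any other derivative. EPHA2, an ephrin receptor, was at 61.7 in DE, 26.9 in MESO, 29.2 in NPC and 44.7 FPKM in NCSC, against 10.6 to 14.0 FPKM in hESC, and EPHA4 at 12.0 in DE, 4.18 in MESO, 71.5 in NPC and 26.1 FPKM in NCSC, against 1.51 to 1.78 FPKM in hESC. ITGA5, the fibronectin receptor subunit, was at 52.4 in DE, 39.2 in MESO, 17.7 in NPC and 11 FPKM in NCSC, against 4.80 to 6.91 FPKM in hESC. CXCL12, the ligand of CXCR4, was lower in exactly 3, with changes of -1.53 in DE, -0.78 in MESO, -5.12 in NPC and -3.60 in NCSC. The list also held 7 genes higher and 7 lower in exactly 3, against 1.15% and 2.30% of all symbols.

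Wnt pathway genes contributed the largest shared gain. WLS, the carrier that Wnt proteins need for secretion, was at 39.7 in DE, 270.4 in MESO, 68.9 in NPC and 84.8 FPKM in NCSC, against 2.40 to 3.29 FPKM in hESC, and its smallest change, 3.25 in DE, was the largest among the 91 genes. WLS rose in the authors' deposited tables for MESO, NPC and NCSC, and its q-value in DE was 0.999. It was not on a list and came in by the size of its smallest change. Of 34 measured WNT genes, 2 were higher in all 4, 7 higher in exactly 3 and 1 lower in exactly 3. The shares of all symbols in these classes were 0.427%, 1.15% and 2.30%. FZD2, a Wnt receptor, was at 11.2 in DE, 15.3 in MESO, 85.6 in NPC and 60.7 FPKM in NCSC, against 2.93 to 4.18 FPKM in hESC. SFRP1, a secreted Wnt antagonist, was at 176 in DE, 40.5 in MESO, 189 in NPC and 84.0 FPKM in NCSC, against 18.3 to 20.8 FPKM in hESC. TCF7L1, a repressor of Wnt targets in stem cells, was the gene lower in exactly 3, with changes of -0.37 in DE, -1.47 in MESO, -2.16 in NPC and -1.70 in NCSC.

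Other genes with the largest shared gains had no common list. RBM24, a splicing regulator known from muscle, was at 12.7 in DE, 9.07 in MESO, 16.6 in NPC and 8.31 FPKM in NCSC, against 0.490 to 0.614 FPKM in hESC. CCDC92 was at 19.5 in DE, 19.9 in MESO, 9.56 in NPC and 4.2 FPKM in NCSC, against 0.177 to 0.365 FPKM in hESC, and RAI1, a nuclear regulator, at 7.93 in DE, 15.2 in MESO, 11.8 in NPC and 8.17 FPKM in NCSC, against 0.526 to 0.872 FPKM in hESC. RAI1 passed in none of the authors' deposited tables, with a lowest q-value of 0.09, and CCDC92 passed only in NPC and NCSC. FUT8, which adds core fucose to glycoproteins, was at 75.3 in DE, 95.2 in MESO, 109 in NPC and 64.4 FPKM in NCSC, against 4.06 to 19.9 FPKM in hESC, but in the authors' deposited tables its lowest q-value was 0.46 and its hESC value differed over 4 times between tables. ENC1, an actin-binding Kelch protein, was at 28.0 in DE, 83.5 in MESO, 17.3 in NPC and 7.71 FPKM in NCSC, against 1.39 to 2.59 FPKM in hESC, and CAPN2, a calpain protease, at 29.4 in DE, 113 in MESO, 31.5 in NPC and 40.6 FPKM in NCSC, against 6.00 to 7.74 FPKM in hESC. Chosen after their values were seen, PRTG, an immunoglobulin-like receptor of the early embryo, was at 3.51 in DE, 129.9 in MESO, 96.4 in NPC and 62.6 FPKM in NCSC, against 0.468 to 0.665 FPKM in hESC. CNTFR, the receptor for ciliary neurotrophic factor, was at 4.84 in DE, 20.0 in MESO, 33.9 in NPC and 69.7 FPKM in NCSC, against 0.705 to 0.769 FPKM in hESC. Both were far lower in DE than in the other derivatives. Besides CDH2, COL5A1, CXCR4, ENC1, FBN2, ITGA5 and SFRP1, the genes that rose in every authors' deposited table were CPE, NRP2 and TMEM123. CPE, a prohormone-processing carboxypeptidase, was at 74.4 in DE, 24.9 in MESO, 11.9 in NPC and 19.8 FPKM in NCSC, against 3.31 to 4.06 FPKM in hESC, and NRP2, a semaphorin and VEGF co-receptor, at 39.2 in DE, 59.9 in MESO, 12.8 in NPC and 26.7 FPKM in NCSC, against 3.40 to 4.30 FPKM in hESC.

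NODAL and activin pathway genes included 6 losses that DE did not share, the derivative given the most activin A. None of the 26 measured genes was shared by all 4, 6 were lower in exactly 3, all with DE as the exception, and 2 were higher in exactly 3. Over all symbols 1.09% were lower and 0.427% higher in all 4, so the lack of either says little for 26 genes. In exactly 3, 2.30% of all symbols were lower and 1.15% higher. DE was the exception for 350 of all 490 symbols lower in exactly 3, so it is the usual exception. Whether activin A had a part in the 6 losses was not tested. TDGF1, the NODAL co-receptor, was at 245 in DE, 2.55 in MESO, 0.0117 in NPC and 0.0678 FPKM in NCSC, against 253 to 297 FPKM in hESC, close to the hESC level in DE. NODAL, the ligand, was at 59.5 in DE, 0.947 in MESO, 0.611 in NPC and 0.556 FPKM in NCSC, against 11.4 to 14.1 FPKM in hESC. LEFTY1 and LEFTY2, its feedback inhibitors, were at 682 and 511 FPKM in DE, at most 2.43 FPKM in MESO, NPC and NCSC, and 19 to 25.5 and 14.3 to 15.6 FPKM in hESC. Both rose in DE and fell in MESO by the authors' deposited tables, and no other gene of the list rose in DE by that measure. FOXH1, a SMAD partner, and GDF3, a NODAL-related ligand, completed the 6, with DE changes of 0.07 and 1.93. TDGF1 is 97.95% identical to TDGF1P3 over 2487 bases, and TDGF1P3 moved with it (-0.13 in DE, -4.94 in MESO, -5.82 in NPC and -5.72 in NCSC).

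Other stem cell genes were lower in all but DE. ZSCAN10, a zinc finger factor of the network, was at 36.0 in DE, 2.89 in MESO, 1.64 in NPC and 0.997 FPKM in NCSC, against 68.8 to 76.2 FPKM in hESC. L1TD1, an RNA-binding protein of stem cells, was at 101 in DE, 58.7 in MESO, 21.1 in NPC and 4.13 FPKM in NCSC, against 138 to 201 FPKM in hESC. PODXL, the carrier of the TRA-1 surface epitopes, was at 299 in DE, 79.3 in MESO, 10.3 in NPC and 156 FPKM in NCSC, against 370.1 to 424 FPKM in hESC, and ALPL, alkaline phosphatase, at 111 in DE, 19.1 in MESO, 43.1 in NPC and 49.6 FPKM in NCSC, against 113 to 125 FPKM in hESC. DPPA2, the partner of DPPA4, had changes of -0.71 in DE, -1.20 in MESO, -3.07 in NPC and -2.54 in NCSC. PODXL had changes of -0.31 in DE, -2.22 in MESO, -5.22 in NPC and -1.33 in NCSC, so its loss was deepest in NPC. PMAIP1, the pro-apoptotic NOXA, was at 143 in DE, 12.7 in MESO, 1.73 in NPC and 2.63 FPKM in NCSC, against 137 to 168 FPKM in hESC, and in DE it was at the hESC level.

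Among gains that DE did not share, the 5 with the largest smallest change in the other derivatives were GREB1L, ZNF503, ZEB2, MEIS2 and GPR56. GREB1L was at 0.0901 in DE, 40.0 in MESO, 57.5 in NPC and 52.5 FPKM in NCSC, against 0.0636 to 0.433 FPKM in hESC, and ZNF503, a zinc finger repressor, at 0.420 in DE, 18.4 in MESO, 20.7 in NPC and 34.0 FPKM in NCSC, against 0.162 to 0.230 FPKM in hESC. ZEB2, a repressor of epithelial genes, was at 0.213 in DE, 15.3 in MESO, 17.6 in NPC and 21.6 FPKM in NCSC, against 0.0164 to 0.204 FPKM in hESC, and MEIS2, a HOX cofactor, at 0.185 in DE, 11.1 in MESO, 11.2 in NPC and 13.6 FPKM in NCSC, against 0.0852 to 0.123 FPKM in hESC. GPR56, an adhesion G protein-coupled receptor, was at 0.159 in DE, 18.4 in MESO, 24.4 in NPC and 9.58 FPKM in NCSC, against 0.113 to 0.130 FPKM in hESC. All 5 were under 0.5 FPKM in both DE and hESC and rose in the authors' deposited tables for MESO, NPC and NCSC.

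Signalling genes higher in MESO, NPC and NCSC but not in DE included members of the Wnt and Notch lists, and also SMAD3, IGFBP5, EFNB2 and PDGFRB from other lists. LEF1, a nuclear effector of Wnt, was at 0.196 in DE, 24.8 in MESO, 5.30 in NPC and 24.6 FPKM in NCSC, against 0.101 to 0.443 FPKM in hESC, and FZD1, a Wnt receptor, at 1.43 in DE, 7.04 in MESO, 7.31 in NPC and 3.23 FPKM in NCSC, against 0.840 to 0.939 FPKM in hESC. HES1, the Notch effector, was at 11 in DE, 21.2 in MESO, 35.4 in NPC and 28.2 FPKM in NCSC, against 6.60 to 10.1 FPKM in hESC, and JAG1, a Notch ligand, at 9.47 in DE, 27.9 in MESO, 54.4 in NPC and 32.0 FPKM in NCSC, against 13.2 to 17.5 FPKM in hESC. In DE the changes were 0.12 for LEF1, 0.32 for FZD1, 0.66 for HES1 and -0.82 for JAG1. DLL3, an inhibitory Notch ligand, was lower in the same 3 derivatives, at 6.78 in DE, 2.23 in MESO, 1.43 in NPC and 1.96 FPKM in NCSC, against 5.93 to 8.64 FPKM in hESC. The 20 measured Notch genes gave 1 higher in all 4, 2 lower and 2 higher in exactly 3, against 0.427%, 2.30% and 1.15% of all symbols.

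Some matrix, crest and epithelial genes had the same exception, while COL4A2 and DSP were missing in NPC, LAMA1, TIMP3 and SOX8 in NCSC, and HAPLN3 and ELF3 in MESO. SOX9, a crest and cartilage factor, was at 1.25 in DE, 31.9 in MESO, 23.4 in NPC and 16.1 FPKM in NCSC, against 2.25 to 2.87 FPKM in hESC, and SNAI2, a repressor of epithelial genes, at 0.317 in DE, 80.9 in MESO, 3.78 in NPC and 11.7 FPKM in NCSC, against 0.243 to 0.288 FPKM in hESC. FBN1, fibrillin 1, was at 1.75 in DE, 11.1 in MESO, 18.5 in NPC and 4.25 FPKM in NCSC, against 0.707 to 0.926 FPKM in hESC. All 3 were below 5 FPKM in hESC. ESRP1, a splicing factor of epithelial cells, was lower in all but DE, at 57.6 in DE, 30.5 in MESO, 0.444 in NPC and 0.50 FPKM in NCSC, against 72.4 to 90.3 FPKM in hESC, and AP1M2, an epithelial sorting adaptor, had changes of -0.21 in DE, -1.12 in MESO, -5.79 in NPC and -5.41 in NCSC. Of 37 epithelial junction genes, 5 were lower and 1 higher in exactly 3, against 2.30% and 1.15% of all symbols.

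Exceptions in MESO, NPC and NCSC were fewer. ZFP42 (REX1), a classical stem cell marker, was at 19.4 in DE, 87.1 in MESO, 10.7 in NPC and 14.0 FPKM in NCSC, against 85.3 to 106 FPKM in hESC, with a change of -0.07 in MESO. TFAP2C, a factor of trophoblast and germ cells, was at 6.83 in DE, 56.3 in MESO, 0.288 in NPC and 4.22 FPKM in NCSC, against 16.4 to 18.6 FPKM in hESC, lower in all but MESO, where it was higher. ZIC2, a zinc finger factor of the neural plate, was at 118 in DE, 0.885 in MESO, 90.3 in NPC and 123 FPKM in NCSC, against 13.5 to 16 FPKM in hESC, higher in all but MESO, where it fell by the authors' deposited table. With NPC as the exception, SLC2A3, the glucose transporter GLUT3, was at 1265 in DE, 553 in MESO, 157 in NPC and 614 FPKM in NCSC, against 182 to 249 FPKM in hESC, and BHLHE40, a repressor of the circadian clock, at 17.6 in DE, 44.7 in MESO, 0.413 in NPC and 8.60 FPKM in NCSC, against 1.61 to 2.0 FPKM in hESC. With NCSC as the exception, TBC1D9 was at 8.81 in DE, 11.3 in MESO, 5.25 in NPC and 1.07 FPKM in NCSC, against 0.102 to 0.179 FPKM in hESC and IRX2, an Iroquois homeobox factor, at 1.88 in DE, 4.37 in MESO, 6.47 in NPC and 23.8 FPKM in NCSC, against 17.5 to 29.5 FPKM in hESC. NIPBL and RAB11FIP3 met the rule as exceptions in MESO and NCSC but were listed at 0 in some cell types in the row used, have several rows and passed in none of the authors' deposited tables.

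Further genes in all 4 derivatives are named after their values were seen, and not by rank of level. Higher were PALLD, an actin-bundling protein, at 11.5 in DE, 126 in MESO, 49.2 in NPC and 21.6 FPKM in NCSC, against 5.10 to 6.86 FPKM in hESC, and CD99, a surface glycoprotein, at 85.0 in DE, 101 in MESO, 24.0 in NPC and 34.5 FPKM in NCSC, against 9.29 to 10.2 FPKM in hESC. GSN, gelsolin, which severs actin, was at 28.1 in DE, 56.4 in MESO, 40.5 in NPC and 79.9 FPKM in NCSC, against 9.50 to 11.1 FPKM in hESC. MSI1, an RNA-binding protein of neural progenitors, was at 33.4 in DE, 16.3 in MESO, 71.2 in NPC and 32.3 FPKM in NCSC, against 7.11 to 9.13 FPKM in hESC, highest in NPC. BNIP3, a mitophagy receptor, was at 70.1 in DE, 44.9 in MESO, 39.4 in NPC and 57.6 FPKM in NCSC, against 16.3 to 18.6 FPKM in hESC, and AMOTL2, a Hippo pathway scaffold, at 33.3 in DE, 62.0 in MESO, 38.9 in NPC and 31.4 FPKM in NCSC, against 9.44 to 14.7 FPKM in hESC.

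On the lower side, PLA2G16, a phospholipase, was at 55.0 in DE, 27.2 in MESO, 3.25 in NPC and 2.93 FPKM in NCSC, against 146 to 164 FPKM in hESC, and RABGAP1L, a Rab GTPase-activating protein, at 17.2 in DE, 5.01 in MESO, 4.11 in NPC and 5.81 FPKM in NCSC, against 82.4 to 102 FPKM in hESC. PLA2G16 was lowest in NCSC and RABGAP1L in NPC. LITAF, an endosomal membrane protein, was at 73.0 in DE, 73.2 in MESO, 31.7 in NPC and 63.4 FPKM in NCSC, against 208 to 246 FPKM in hESC. CEBPZ, a nucleolar protein of ribosome assembly, was at 37.0 in DE, 29.7 in MESO, 21.9 in NPC and 20.3 FPKM in NCSC, against 78.4 to 114 FPKM in hESC, and NOP16, another, at 15.4 in DE, 20.0 in MESO, 5.02 in NPC and 9.29 FPKM in NCSC, against 32.7 to 49.1 FPKM in hESC. CEBPZ had changes of -1.06 in DE, -1.65 in MESO, -2.32 in NPC and -2.33 in NCSC. WDHD1, a replication factor, was at 21.3 in DE, 14.1 in MESO, 23.5 in NPC and 14.2 FPKM in NCSC, against 47.5 to 60.0 FPKM in hESC, and CDCA7L, a MYC-interacting protein, at 18.5 in DE, 10.6 in MESO, 10.5 in NPC and 13.1 FPKM in NCSC, against 46.4 to 54.3 FPKM in hESC. FRAT2, a GSK3-binding activator of Wnt signalling, was at 26.5 in DE, 9.0 in MESO, 7.61 in NPC and 4.15 FPKM in NCSC, against 70.7 to 96.4 FPKM in hESC. USP28, a deubiquitinase that stabilises MYC, was at 25.8 in DE, 18.1 in MESO, 4.13 in NPC and 11.9 FPKM in NCSC, against 58.7 to 71.6 FPKM in hESC. HPRT1, the purine salvage enzyme often used as a reference gene, was at 16.8 in DE, 17.7 in MESO, 15.8 in NPC and 16.7 FPKM in NCSC, against 35.0 to 45.6 FPKM in hESC, lower in each derivative. Its changes of -1.01 in DE and -1.05 in MESO lay near the limit, and it passed only in NPC and NCSC in the authors' deposited tables.

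Other lists held few members. None of 23 measured ribosomal protein genes was in any class, and HOX genes gave 1 of 24, the cofactor MEIS2. The glycolysis list gave 2 of 36, and the 27 cytoskeletal genes gave VIM and STMN2 in all 4. STMN2, a microtubule destabiliser of neurons, was at 17.7 in DE, 2.42 in MESO, 2.91 in NPC and 12.3 FPKM in NCSC, against 0.562 to 0.992 FPKM in hESC. ACTA2 and ACTG2, smooth muscle actins, were in the exactly-3 classes with DE as the exception. Over all symbols the 4 classes together held 1057 of 21298. The HOX and glycolysis shares are near that background, and the ribosomal list is too small to lie clearly below it.

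Against all symbols, the shared losses were placed unevenly in the genome. All 232 genes lower in all 4 had at least 1 FPKM in every hESC column, as had 11669 of the 21298 symbols. Chromosome and protein-coding shares among those 11669 symbols were not computed. Whether the losses differ from expressed genes in these respects was thus not tested. Chromosome 19 held 32 of the 232 genes lower in all 4 (13.8%) and none of the 91 higher in all 4, against 6.68% of all symbols. Without short RNAs it held 26 of 216 (12.0%). Chromosome 16 held 19 of the 232 (8.19%), against 3.84% of all symbols, so the excess was not limited to chromosome 19. Among genes shared by exactly 3, chromosome 19 held 10.6% of the lower and 1.23% of the higher ones. In all, 41 of the 232 lay within 100 kb of another member, in 19 groups, among them the DPPA5 and KHDC3L pair at chr6:74062784-74073898 and SNORD116-28 with IPW at chr15:25348056-25367623 (hg19). Some of these are near-identical copies, as CKMT1A and CKMT1B (99.78% identical) and HBA1 and HBA2 (96.53%). The 91 higher genes had 3 such groups with 6 genes. Protein-coding genes made up 88.4% of the lower and 97.8% of the higher group, against 81.9% of all symbols.

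The limit of 1 divides near neighbours. Just inside it on the lower side were AIG1 (decided by NCSC), FXYD1 and CR1L (both decided by DE, CR1L at -1.01), and just outside PARP1, at 103 FPKM in DE against 207 FPKM in hESC (a change of -0.997), JAKMIP2-AS1 and RRP12. On the higher side ASXL1, SULF2 and BTG2 lay just inside, with smallest changes of 1.01 each. SDC3, ZNF436 and SOX5 lay just outside, at 0.997, 0.989 and 0.988. Of the lower and higher genes, 77 and 23 stayed under 5 FPKM in both cell types of at least 1 table, where a small difference in level crosses the limit.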

How the data were processed

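Poly-A RNA of 10 libraries (5 cell types, 2 libraries each) was sequenced on an Illumina HiSeq instrument, per the labels' protocols. TopHat2 2.0.13, Subread 1.5.2 with featureCounts, Cufflinks 2.2.1 and the hg19 build are named, per the submitters' processing notes. The authors deposited 4 tables with 1 FPKM value per cell type and locus, the 2 libraries combined. The deposited test statistic is a signed score per locus, and the p-value and q-value beside it are the authors' own. No read counts or library spread are held in these tables, so no depth, SD, interval or test across libraries was computed, and the planned comparison stayed descriptive.

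Symbols on chromosomes 1 to 22 and X were used, a symbol with several rows was read from its most abundant row, by mean FPKM, and rows naming several genes were left out. The change was log2(FPKM + 1) of derivative minus hESC, centred on the median of the table, and shared genes had changes of at least 1 in size. Members and gene lists were chosen with earlier results of these data known. Named genes were the 15 in each direction with the largest smallest change in all 4, the 5 for each exception, the 3 nearest the threshold on each side, list members (up to 6 a list, by mean FPKM), the 3 markers and 9 stem cell genes of any class. Others were chosen after their values were seen and are named as such where they appear. Symbols whose FPKM was written with more than 6 significant digits or disagreed with the statistic (mean FPKM of at least 20, quotient 0.4) were set apart, a rule chosen after seeing the data. The scripts were tested on simulated data.

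Python 3.11.15, numpy 2.4.6, pandas 2.3.3, matplotlib 3.10.9 and blastn 2.17.0+ were used. Copies were compared on GENCODE transcripts. Promoters came from RefSeq, GRCh38.p14, whose coordinates were not mixed with hg19. Alternatives were pseudocounts of 0.1 and 5, no centring or centring on expressed symbols, quantile normalization, a minimum of 5 FPKM, a threshold of 2, the median hESC value, summed rows, merged loci kept, symbols set apart left out and the authors' q-value. The row of the largest statistic, and leaving out short RNAs with several-row symbols, were added after seeing the data.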

Additional observations from a re-analysis of the deposited data

Results flagged for a closer look

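In 16 genes of the lists or the named set, the derivative that did not share the change was past 1 in the opposite direction. These differences between derivatives were not tested, and the series has only 2 hESC libraries for all 4 comparisons. Genes of the NODAL pathway stood out in DE. LEFTY2 had a change of 5.07, LEFTY1 of 4.69, NODAL of 2.0 and GDF3 of 1.93 in DE, while each was lower in the other derivatives. LEFTY1 and LEFTY2 passed in the authors' deposited table for DE. NODAL and GDF3 did not, with a q-value of 0.419 for GDF3. CYP26A1, which degrades retinoic acid, had a change of 6.07 in DE, and KIT, the receptor for stem cell factor, of 1.44, both again lower elsewhere. In the reverse sense, DDIT4, a stress-induced inhibitor of mTOR, was at -1.97 in DE and ACTA2, smooth muscle actin, at -1.07, where the other derivatives were higher.

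MESO was the opposite case for 7 genes. KRT7, a simple epithelial keratin, had a change of 4.19 in MESO, SMARCA2 of 2.80, FLT1, a VEGF receptor, of 2.21, TFAP2C of 1.71 and GADD45G, a stress-response gene, of 1.48, while each was lower in the other derivatives. ZIC2 was at -2.95 and the short RNA SNORA11E at -3.15 in MESO, against higher values elsewhere. SMARCA2, GADD45G and SNORA11E have several rows, and their value is that of the row with the highest mean. SNORA11E was listed at 0 FPKM in MESO. The trophoblast and amnion markers summed to 1266 FPKM in MESO against 30.7 FPKM in hESC, and their part in these values was not tested. CA4, a carbonic anhydrase, was at 1.87 in NPC and lower in the other derivatives.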

How the results depend on the processing

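The 4 counts (232 lower and 91 higher in all 4, 490 lower and 244 higher in exactly 3) depended most on the pseudocount and the threshold. With a pseudocount of 0.1 they were 561, 210, 891 and 550, and with a pseudocount of 5 they were 81, 23, 195 and 88. At a threshold of 2 they were 38, 10, 110 and 46. A minimum of 5 FPKM gave 310 lower and 98 higher in exactly 3, and the authors' q-value below 0.05 in at least 3 tables gave 127 lower in all 4 and 197 lower and 128 higher in exactly 3. Every other count was within 1.5 times the main one. Centring on symbols of at least 1 FPKM kept 204 of the 232 lower genes among 229, and quantile normalization kept 202 of them among 232. For 174 named genes the median change over the tables was recomputed under 6 of these alternatives. None with a median of at least 1 in size changed sign, but it moved by more than the SD of the 4 log2 hESC values for 147 with a pseudocount of 5, 111 with 0.1, 59 with centring on symbols of at least 1 FPKM and 41 with quantile normalization.

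No paired analysis was possible because each table holds a single combined value per cell type, so leaving out 1 library and a replicate block were not run. Read depth is not known, the series has only 2 hESC libraries for all 4 comparisons, and low FPKM values carry an unknown counting error.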
